A study of Homo sapiens with 32 samples.

Results

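The regions described here are ATAC-seq windows just inside protein-coding genes. They are the counted windows of 401 bp whose centre lies 100 to 600 bp downstream, in the direction of transcription, of the 5′ end of a protein-coding gene in GENCODE release 44, with no 5′ end of another protein-coding gene within 500 bp of the centre. The rule selected 7094 of the 212358 counted windows, in 6379 genes, of which 5667 held 1 such window, 709 held 2 and 3 held 3. Windows 100 to 600 bp upstream, chosen under the same condition, served for comparison and numbered 4904 in 4451 genes. Of the 7094 downstream windows, 32 also lay upstream of a different gene under that condition, and they were left out of the upstream set. Position alone chose the windows, beyond the peak calling that made the table, and no difference between treatments was used.

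All libraries came from HEK_CloneZD29, 1 clone derived from the human embryonic kidney line HEK293T. The clone has an inducible degron tag on ZNF143, a transcription factor with zinc fingers, and this genotype is written in the labels of replicates 1 to 8 and given for replicates 9 to 16 only through the name of the clone. Counts per window were analysed for replicates 9 to 16, with 8 control libraries given DMSO and 8 libraries given 50 nM dTAGV-1 for 30 minutes, a compound that brings a tagged protein to a ubiquitin ligase. Both groups carry the tag, and ZNF143 protein was not measured here. The comparison asks where accessibility differed soon after ZNF143 was targeted. Library totals lay between 2275856 and 13671039 counts. Control replicate 12 was the shallowest library and had the flattest signal, with 29.6% of its counts in the most abundant decile, where the other 15 libraries had 36.5% to 46.5%. The labels do not say that replicates came from separate cultures, so p-values measure only the spread between these libraries. Of the markers of this line, windows near the starts of NEFM, NEFL and VIM were tested, while PAX2 and LHX1 had none. The leukocyte, liver, beta cell and erythroid markers PTPRC, CD3E, ALB, INS and HBB also had none.

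In active mammalian genes the chromatin around the start is open, with a region depleted of nucleosomes over the promoter and a first positioned nucleosome inside the gene. Many genes use several alternative start sites, so that DNA downstream of the outermost annotated 5′ end can be the promoter of another transcript of the same gene. ZNF143 binds promoters through an array of zinc fingers, and its recognition sequence holds the core CCCANAATGC or CCCANCATGC, in which N is any base.

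Sites with this core are printed first because they are the sequences against which the changes were set. Of the windows lower in dTAGV-1, 4 held it, those of IFRD2, DUS3L, UBALD1 and ZNF428. The windows of SUCLG1, MON1A and MRPL24 did not pass the test but hold, as do DUS3L and UBALD1, the bases CTACA shortly before the core. Each site runs 5′ to 3′ on the strand that carries the core, which stands in capitals.
IFRD2: gaactatgcaCCCACAATGCcctgcgcgcg
DUS3L: aactacaattCCCAGCATGCcttgaagcgg
UBALD1: gactacatatCCCAGCATGCcgcggcgccg
ZNF428: agtcgtcgctCCCATCATGCagcggggccg
SUCLG1: gactacattgCCCACAATGCcacgcgctgg
MON1A: gactacatttCCCACAATGCaccccggggg
MRPL24: gactacaactCCCAGCATGCtgagaggtaa

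In hg38, counted from 1, the IFRD2 site is chr3:50292608-50292637 on the plus strand and the DUS3L site chr19:5790598-5790627 on the plus strand. The UBALD1 site is chr16:4614937-4614966 on the minus strand and the ZNF428 site chr19:43619478-43619507 on the plus strand. The remaining sites are all on the minus strand, at chr2:84459523-84459552 for SUCLG1, chr3:49929873-49929902 for MON1A and chr1:156741176-156741205 for MRPL24. The core of IFRD2 was centred 295.5 bp inside the gene, that of DUS3L 612.5 bp, that of UBALD1 75.5 bp and that of ZNF428 136.5 bp. In UBALD1, SUCLG1, MON1A and MRPL24 the core had the direction of the gene, and in IFRD2, DUS3L and ZNF428 the opposite one.

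By the annotation at the centre, 3667 of the downstream windows lay in introns (51.7%), 2134 in untranslated exons (30.1%), 990 in coding exons (13.96%) and 295 in noncoding exons (4.16%), and 8 lay outside the annotated extent of their gene. In 47.5% the centre was beyond the first exon of the canonical transcript. The outermost 5′ end used by the rule is not always the canonical start: it lay within 50 bp of it for 60.8% of the windows. A median of 367 bp separated the centres from the gene start and 275 bp from the canonical start, and 73.4% lay downstream of the latter. A transcript start of the gene, the canonical one included, stood within 100 bp of the centre in 31.0%, against 0.612% of upstream windows.

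The downstream windows were rich in G and C, with a median GC content of 67.3% against 62.6% upstream and 48.1% over all counted windows. The observed to expected ratio of CpG was 0.791, 0.747 and 0.249 in the same order. Read along the gene, G exceeded C in 62.8% of downstream and 45.8% of upstream windows. The string GGTAAG, a common start of introns, was found on the sense strand in 11.1% of downstream windows and on the antisense strand in 3.47%, whereas upstream the shares were 3.98% and 3.81%. Other strings known from promoters were searched on both strands of the 401 bp, and none contains another. The GC box GGGCGG was in 71.6% of downstream, 65.2% of upstream and 21.3% of all windows. CCAAT was in 23.3%, 38.2% and 38.8%, the ETS sequence CCGGAAG in 9.78%, 9.65% and 3.46%, and TATAAA in 4.12%, 8.24% and 21.2%. These are matches of letters and not occupied sites.

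The level of downstream windows in control was below that of upstream windows and above that of windows at large. Levels are log2 CPM, in which counts are scaled to the library total over tested windows after adjustment by its TMM factor. All windows have 1 length, so length does not enter comparisons of level between them. Levels were not corrected for GC content, which differed between these sets. The median level of tested downstream windows in control was 2.99, with quartiles of 2.28 and 3.70, against 3.30 for upstream windows and 1.42 for all tested windows. The authors' −log10 q of the peak call had a median of 95.1 downstream, 168 upstream and 23.4 overall. Within the downstream range the median fell with distance, from 3.23 at 100 to 200 bp to 3.20, 3.00, 2.86 and 2.80 in the next bins of 100 bp. The 865 tested windows within 100 bp of the canonical start had a median of 3.76, those further downstream of it 2.86 and those more than 100 bp upstream of it 3.13. A summit of the separate peak list for replicates 1 to 8 fell in 55.4% of downstream windows, compared with 78.4% of upstream and 77.8% of all counted windows. Overlap with a further counted window, which shares reads, was found for 58.5% of downstream and 51.8% of upstream windows.

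**Figure D1:**
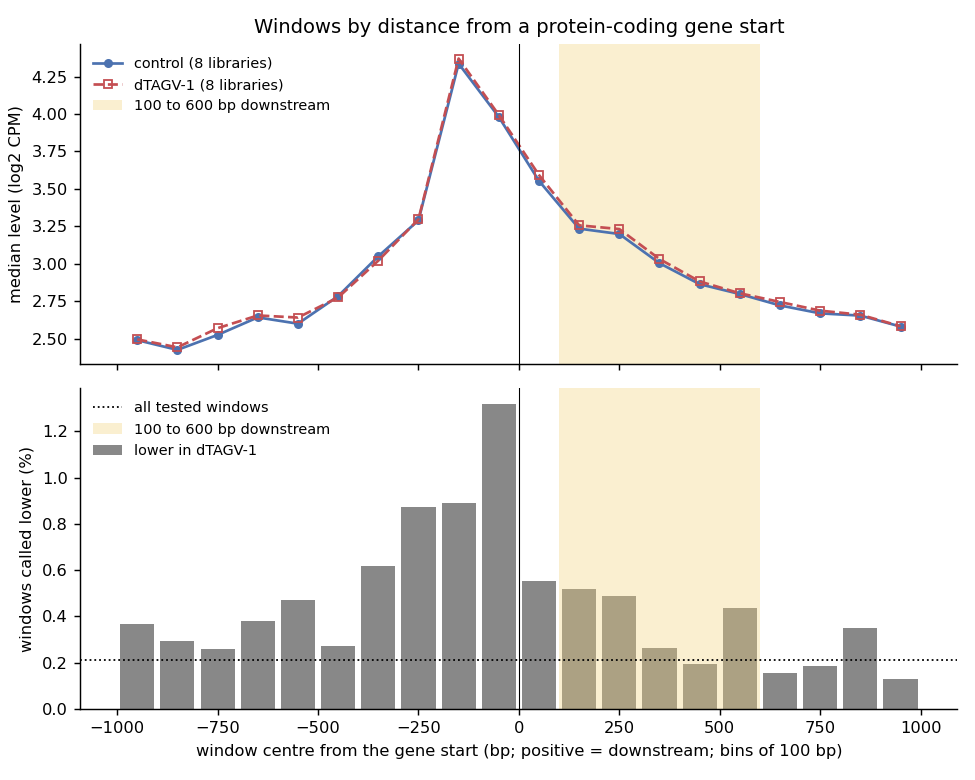
Median level in log2 CPM (top, control and dTAGV-1) and percentage of tested windows called lower in dTAGV-1 (bottom) against the distance of the window centre from the nearest coding gene start, in bins of 100 bp, with the 100 to 600 bp downstream range shaded. The level is highest at 200 to 100 bp upstream (4.34 in control), the share called lower is highest in the 100 bp before the start (1.32%), and both are lower across the shaded range.

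Taken over all tested downstream windows, the level differed between the groups by less than the spread between libraries. Their mean over the tested windows was 2.43 to 3.18 log2 CPM in the control libraries, with a median of 3.06, and 2.73 to 3.23 in dTAGV-1, with a median of 3.08. The groups overlapped almost entirely, and control replicate 12 lay lowest. Set against the upstream windows of the same library, the difference of the means was -0.418 to -0.302 in control (median -0.380) and -0.454 to -0.283 in dTAGV-1 (median -0.358). The group means of this difference, -0.377 ± 0.034 and -0.367 ± 0.050 (SD, n = 8 each), differed by 0.0101, less than the spread of 0.0427 between libraries.

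**Figure D2:**
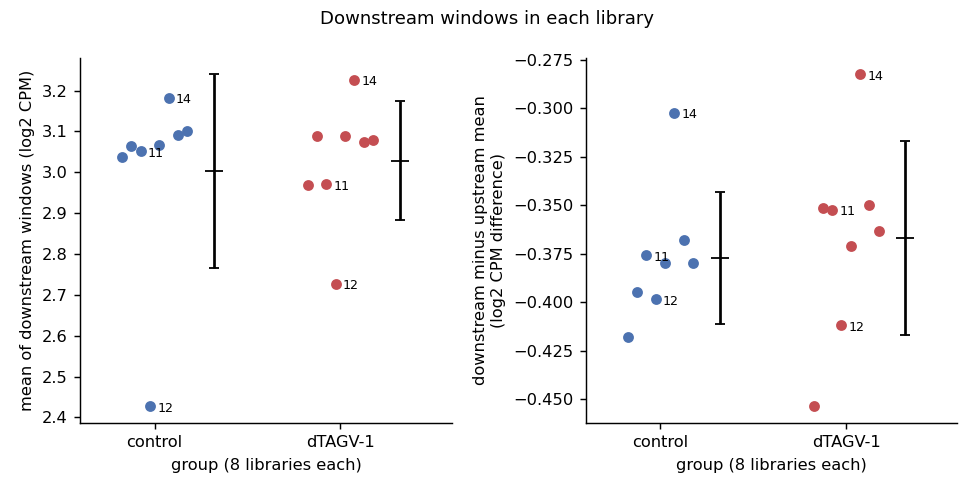
Mean log2 CPM of the tested downstream windows (left) and that mean minus the mean of the upstream windows (right), 1 point per library, with the group mean and SD in black and replicates 11, 12 and 14 numbered. The groups overlap in both panels, control replicate 12 is lowest on the left at 2.43, and replicate 14 is highest on the right in both groups, at -0.302 and -0.283.

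Of the 7094 windows 6864 passed the filter on low counts (96.8%), and 25 of them were lower in dTAGV-1 at an adjusted p below 0.05 by edgeR's quasi-likelihood test over the whole table, or 0.364%. The background share called lower was 0.213% of all tested windows, and 32 of 4748 upstream windows (0.674%) were called. More of the calls were at higher levels: of the 25, the quartiles of downstream windows from the lowest to the highest level held 2, 1, 9 and 13. Downstream windows also have a higher level than windows at large, and the part of level in their share was not tested. No downstream window was called higher by edgeR or by DESeq2, which allows a share of up to 0.0437%, but edgeR called 2 with loess offsets, 3 with the replicate number as a block and 3 without replicates 11 and 12 of both groups. The background share called higher was 0.00108%. At an unadjusted p below 0.05, 103 downstream windows were lower (1.50%) and 61 higher (0.889%), against 1.55% and 1.30% of all tested windows. Fold changes centred near zero, with a downstream median of 0.0082 on the log2 scale (quartiles -0.065 and 0.085) next to 0.0077 for the whole table. By distance from the gene start, the 5 bins of 100 bp held 4, 8, 4, 3 and 6 of the calls, or 0.518%, 0.490%, 0.264%, 0.196% and 0.427% of their tested windows. By distance from the canonical start, 7 of 865 within 100 bp were called (0.809%), 16 of 4824 further downstream (0.332%) and 2 of 1175 further upstream (0.170%).

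The counts moved with control replicate 12. Without it 43 downstream windows (0.626%) were called lower, including all 25, next to 68 upstream windows (1.43%) and 627 windows of the whole table (0.331%). Without replicates 11 and 12 of both groups the counts were 56, 84 and 767. The 25 windows belonged to 25 genes. Their log2 fold changes ran from -1.29 to -0.60, with a median of -0.92 and standard errors of 0.13 to 0.23, and 6 were below -1. In 7 windows every dTAGV-1 library lay below every control library, and with control replicate 12 left aside in 21. Such separation was found at 7 of the 32 upstream windows called lower and 115 of the 395 of the whole table. It therefore does not set the downstream calls apart, and the count of 21 has no such background. By annotation 14 were in introns, 8 in untranslated exons and 3 in noncoding exons. None of the 960 tested windows centred in coding exons was called by edgeR or DESeq2, which allows a share of up to 0.312%, and 3 of them were lower and 12 higher at an unadjusted p below 0.05. The centres of 16 were beyond the first exon of the canonical transcript, and 7 were within 100 bp of the canonical start. Counting every transcript of the gene, the canonical one included, 14 had a start within 100 bp. No lncRNA gene started within 500 bp of any of the 25, compared with 13.8% of all downstream windows. With only 25 windows, 0 allows a share of up to about 12%, which is near 13.8%, and the difference was not tested. Their median GC content was 62.1%.

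The window with the smallest p was in an untranslated exon of IFRD2, whose protein is known from translationally inactive ribosomes. It lay at chr3:50292336-50292736, 382 bp downstream of the outermost start and 107 bp upstream of the canonical one. Control libraries ranged from 4.86 to 6.18 log2 CPM with a median of 6.01, and dTAGV-1 libraries from 4.44 to 4.79 with a median of 4.58. The groups did not overlap, even with control replicate 12 as the lowest control value. The mean fell from 5.86 ± 0.42 to 4.63 ± 0.14 (SD, n = 8), a log2 fold change of -1.29 (SE 0.15, edgeR adjusted p = 3.05e-07) that left 41% of the control signal.

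CTF1, which encodes the cytokine cardiotrophin of the interleukin-6 family, had its window in an intron 559 bp from the start, at chr16:30896973-30897373. Its levels were 4.28 to 4.87 in control (median 4.41) and 2.88 to 3.63 in dTAGV-1 (median 3.37), again without overlap. The log2 fold change was -1.16 (SE 0.14, edgeR adjusted p = 3.23e-07). ZNF223, a zinc finger gene of the KRAB kind, had an intronic window 580 bp from the gene start and 89 bp upstream of the canonical one, at chr19:44051747-44052147. Levels there were 3.96 to 4.91 in control (median 4.64) and 3.08 to 3.71 in dTAGV-1 (median 3.63). All dTAGV-1 libraries were below all controls, and the log2 fold change was -1.05 (SE 0.14, edgeR adjusted p = 3.68e-06).

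FNTB encodes the beta subunit of protein farnesyltransferase. Its intronic window at chr14:64986940-64987340, 245 bp from the start, measured 4.45 to 5.38 in control (median 5.31) and 3.90 to 4.30 in dTAGV-1 (median 4.20). The groups were separate, with a log2 fold change of -1.05 (SE 0.14, edgeR adjusted p = 4.71e-06). RNASEH2C, a subunit of the nuclease that removes RNA from RNA-DNA hybrids, had a window at chr11:65720342-65720742, 276 bp from the start in a noncoding exon. It measured 2.95 to 3.70 in control (median 3.50) and 1.74 to 2.91 in dTAGV-1 (median 2.71). The highest dTAGV-1 library was just below the lowest control, and the log2 fold change was -0.92 (SE 0.15, edgeR adjusted p = 0.000137).

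At DUS3L, POLR1A and CEP57L1 the groups overlapped only through control replicate 12. DUS3L, a dihydrouridine synthase that modifies RNA, had an intronic window 470 bp from the start at chr19:5790555-5790955, with 3.82 to 5.01 in control (median 4.69) and 3.29 to 4.05 in dTAGV-1 (median 3.56). The lowest control other than replicate 12 was at 4.52, and the log2 fold change was -1.02 (SE 0.15, edgeR adjusted p = 3.05e-05). POLR1A encodes the largest subunit of RNA polymerase I, and its intronic window 545 bp from the start, at chr2:86105410-86105810, measured 3.02 to 4.28 in control (median 4.14) and 2.66 to 3.51 in dTAGV-1 (median 3.03). Without replicate 12 the lowest control there was 3.89, and the log2 fold change was -1.0 (SE 0.15, edgeR adjusted p = 3.19e-05). CEP57L1, named for its likeness to a centrosomal protein, had a window in an untranslated exon 395 bp from the gene start and 2 bp from the canonical one, at chr6:109095305-109095705. It measured 3.65 to 4.52 in control (median 4.35) and 2.97 to 3.73 in dTAGV-1 (median 3.43), with a log2 fold change of -0.93 (SE 0.14, edgeR adjusted p = 4.19e-05).

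**Figure D3:**
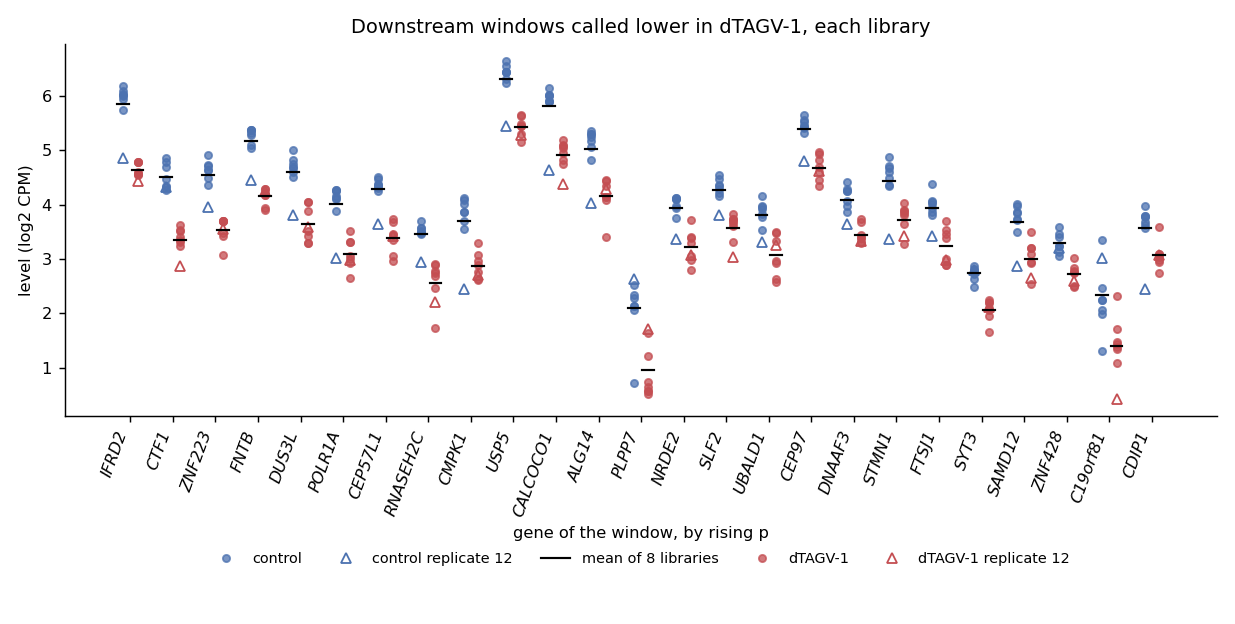
Level in log2 CPM of each library at the 25 downstream windows called lower, ordered by rising p, with control in blue, dTAGV-1 in red, replicate 12 of each group as open triangles and the mean of 8 libraries as a bar. Control means lie above dTAGV-1 means throughout because the windows were selected as lower, and control replicate 12 is the lowest control library at 20 of the 25.

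The next 12 genes by p ranged in log2 fold change from -1.28 to -0.68. USP5, a deubiquitinase that takes apart free polyubiquitin, had the highest level of them, falling from 6.32 ± 0.38 to 5.43 ± 0.17 log2 CPM 317 bp inside the gene (SD, n = 8, edgeR adjusted p = 0.000273). CALCOCO1, a receptor in autophagy of the endoplasmic reticulum, fell from 5.82 ± 0.48 to 4.92 ± 0.26 at 141 bp (edgeR adjusted p = 0.000367). ALG14, a subunit of an enzyme of N-glycan synthesis, fell from 5.04 ± 0.44 to 4.16 ± 0.34 at 273 bp (edgeR adjusted p = 0.000472). These are abundant windows, whereas PLPP7 was the weakest of the 12, falling from 2.10 ± 0.60 to 0.95 ± 0.50 at 202 bp (log2 fold change -1.28, SE 0.23, edgeR adjusted p = 0.00134).

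The nucleotide kinase gene CMPK1 changed by -0.94 on the log2 scale at 441 bp (edgeR adjusted p = 0.0002). CEP97, whose protein sits on centrioles and holds back cilium formation, changed by -0.72 at 365 bp (edgeR adjusted p = 0.00412). DNAAF3, needed to assemble the dynein arms of cilia, changed by -0.68 at 543 bp (edgeR adjusted p = 0.00444). STMN1, a protein that destabilises microtubules, changed by -0.75 at 564 bp, 8 bp from its canonical start (edgeR adjusted p = 0.00456). NRDE2, SLF2, UBALD1 and the tRNA methyltransferase gene FTSJ1 changed by -0.73, -0.70, -0.76 and -0.70, of which FTSJ1 no longer passed without control replicate 16 (edgeR adjusted p = 0.0582). The remaining 5 of the 25 were in SYT3, SAMD12, ZNF428, C19orf81 and CDIP1, with log2 fold changes of -0.71, -0.70, -0.60, -0.97 and -0.62 (edgeR adjusted p = 0.0088, 0.00892, 0.0259, 0.0402 and 0.0457). Of 22 alternative fits, the calls were lost in 10 at ZNF428, 13 at C19orf81 and 14 at CDIP1, mostly by leaving out 1 library, with adjusted p up to 0.135, 0.375 and 0.195 by edgeR or DESeq2. SYT3 lost its call in 1, without dTAGV-1 replicate 10 (edgeR adjusted p = 0.0516), and SAMD12 in 1, without control replicate 16 (edgeR adjusted p = 0.0554).

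At most of these genes the neighbouring windows were not called. In 21 of the 25 genes another tested window lay within 1000 bp of the gene start, and in 19 of them the downstream window had the lowest log2 fold change of all. The downstream windows were selected as lower and most neighbours were not, so this order follows largely from the selection. A window within 100 bp of the start was tested in 14 genes and called lower in 1, and a window further upstream was tested in 8 and called lower in 1. Over all genes the share called lower was 1.32% in the 100 bp before the start and 0.553% in the 100 bp after it. It was 0.674% at 100 to 600 bp upstream. With so few genes, these counts do not show that the neighbouring windows were unchanged. In RNASEH2C the window at -8 bp, which overlaps the downstream one, changed by -1.0 (SE 0.17, edgeR adjusted p = 0.000645). In SAMD12 the window at -136 bp changed by -0.90 (SE 0.17, edgeR adjusted p = 0.00191). Among the starts that were not called, the window of FNTB at -101 bp had 4.56 ± 0.19 log2 CPM in control libraries and 4.70 ± 0.14 in dTAGV-1 libraries, and that of NRDE2 at -98 bp had 5.30 ± 0.46 and 5.40 ± 0.21 (SD, n = 8). At IFRD2 the window at -71 bp, with a log2 fold change of 0.54 (SE 0.17, edgeR adjusted p = 0.575), did not pass the test, and at CALCOCO1 the window at 700 bp was higher by 0.79 (SE 0.17, edgeR adjusted p = 0.0152).

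**Figure D4:**
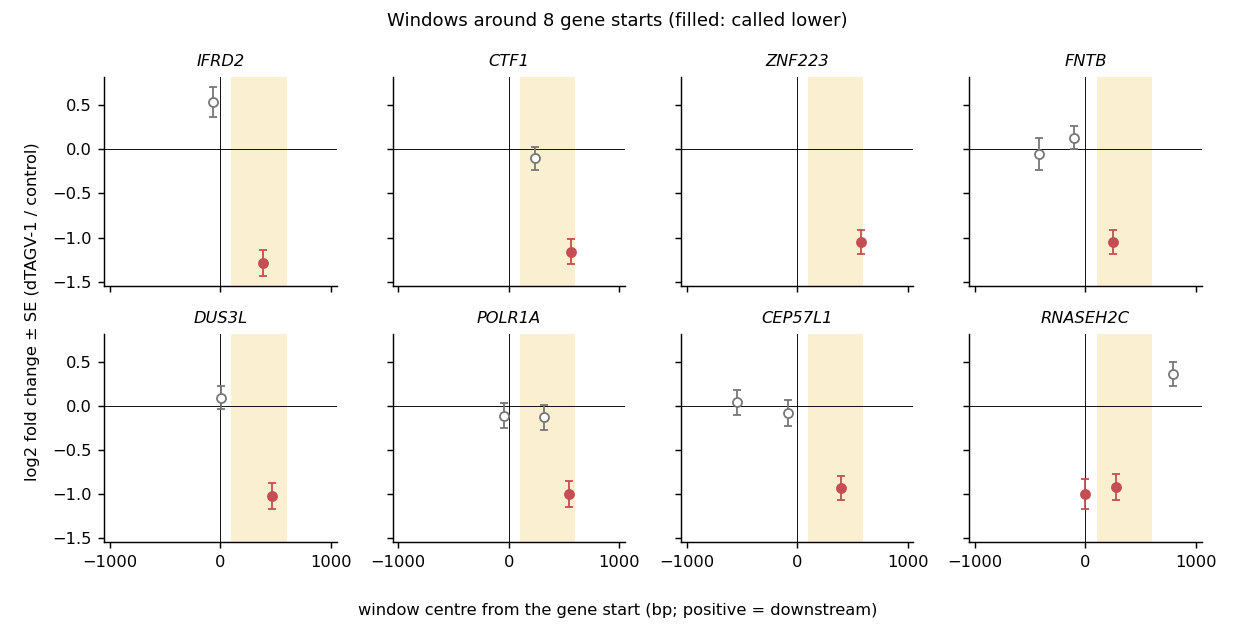
Log2 fold change of dTAGV-1 against control, with its standard error, of every tested window within 1000 bp of the start of the 8 genes with the smallest p, against the distance of the window centre from the gene start in bp, with the 100 to 600 bp range shaded and windows called lower filled. The filled points lie between -1.29 and -0.92, and the open points of FNTB, DUS3L, POLR1A and CEP57L1 lie between -0.13 and 0.13.

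To test the downstream change against the upstream change within a gene, the ratio of the downstream to the upstream window was compared between groups in the 1797 genes with tested, non-overlapping windows on both sides. The median change of this ratio was 0.0041 on the log2 scale, with quartiles of -0.094 and 0.117. By edgeR's interaction test the ratio was lower in dTAGV-1 in 4 genes, which is 0.223% of those tested, and higher in 21, which is 1.17%. At an unadjusted p below 0.05 it was lower in 34 and higher in 57. The count of 21 rested in part on dTAGV-1 replicate 14, without which 12 genes were called, and limma on the log2 ratio called 13.

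The 4 genes with a lower ratio were USP5, ALG14, ZNF428 and ZNF460, and in the first 3 the downstream window was itself called lower. At USP5 the log2 ratio was 0.10 to 0.44 in control (median 0.31) and -0.70 to -0.12 in dTAGV-1 (median -0.59), without overlap. It changed by -0.84 (SE 0.10, edgeR adjusted p = 2.31e-07), with -0.93 downstream and -0.09 in the upstream window at -104 bp. At ALG14 the log2 ratio was 1.31 to 2.17 in control (median 1.93) and -0.11 to 1.32 in dTAGV-1 (median 0.98), overlapping by 1 pair of libraries at the edge. The change was -1.01 (SE 0.15, edgeR adjusted p = 1.91e-05). ZNF428 changed by -0.66 (SE 0.15, edgeR adjusted p = 0.00862) and ZNF460, a zinc finger gene, by -0.48 (SE 0.12, edgeR adjusted p = 0.0313). The call at ZNF460 was lost in 13 of 21 alternatives, 11 of which left out a single library. DNAAF3 and CEP97, the other pairs with a called downstream window, had a ratio change of -0.54 each and did not pass (edgeR adjusted p = 0.102 and 0.145).

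In the 21 genes with a higher ratio, the log2 fold change of the upstream window was negative in all 21 and called lower in 8, while the downstream window was called in none by edgeR or DESeq2. Downstream fold changes were positive in 14, and at an unadjusted p below 0.05 there were 6 higher and 0 lower. These genes were selected for a rise of the ratio in the same libraries. Negative upstream and positive downstream values therefore follow in part from the selection. ACTR1A, the actin-related subunit of dynactin, had log2 ratios of -0.12 to 0.12 in control (median -0.05) and 0.74 to 1.01 in dTAGV-1 (median 0.88). The groups were separate and the ratio rose by 0.90 (SE 0.10, edgeR adjusted p = 1.79e-08), with -0.95 in the upstream window at -175 bp and -0.05 in the downstream window at 499 bp. At BOD1, which is needed for chromosome biorientation in mitosis, the log2 ratio was -2.55 to -2.03 in control (median -2.18) and -1.42 to -1.01 in dTAGV-1 (median -1.21). It rose by 1.08 (SE 0.12, edgeR adjusted p = 2.70e-08), and the downstream fold change was 0.36 with an adjusted p of 1 in the edgeR fit over all windows.

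TMEM245, PA2G4 and STK10 followed by p, with rises of 0.99, 0.97 and 0.73 (edgeR adjusted p = 3.53e-06, 0.000107 and 0.00097). Their downstream windows had log2 fold changes of 0.45, 0.36 and 0.18 and their upstream windows -0.52, -0.59 and -0.53, none of which was called on its own. Over the 1797 genes, only the downstream window was called lower by edgeR in 5, only the upstream window in 9, and both in 0. By DESeq2, and by edgeR at an unadjusted p below 0.05, both were lower in 0 genes as well. Genes with overlapping windows are not among these pairs, and SAMD12, called lower on both sides by edgeR, was left out for that reason. With so few calls on each side, a count of 0 does not show that the sides change separately. The core stood in the upstream window of 6 of the 21 genes with a higher ratio (BOD1, RANGAP1, CAPN10, CHAC2, DESI2 and ZSWIM8) and in the downstream window of 0, compared with 28 upstream windows (1.56%) and 19 downstream windows (1.06%) over all pairs. Of these 6, ZSWIM8 lost its call in 11 of 21 alternatives, 9 of which left out a single library, and CHAC2 in 2, both with limma.

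**Figure D5:**
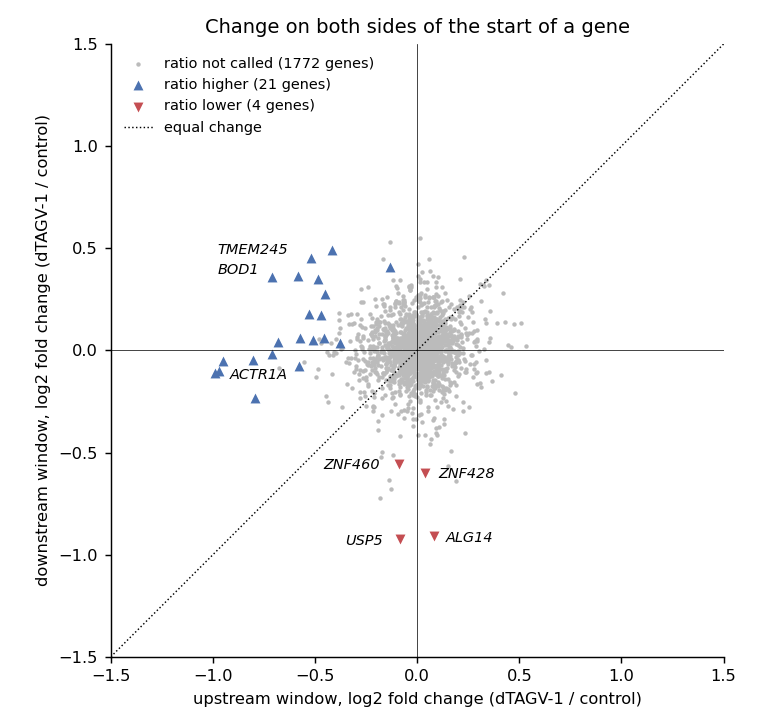
Log2 fold change of the downstream window against that of the upstream window in the 1797 genes with both, with the 21 genes whose ratio rose as blue triangles, the 4 whose ratio fell as red triangles, and equal change as a dotted line. The blue genes lie left of zero with downstream changes between -0.23 and 0.49, and the red genes lie near zero on the upstream axis and between -0.93 and -0.55 downstream. Both sets were selected by the ratio, which in part fixes where they lie.

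The ZNF143 core, printed above in its sites, was rare downstream. Counting matches no more than 100 bp from the centre, 39 of the 7094 windows had it, or 0.550% (95% Wilson interval 0.402% to 0.751%, counting error only). Upstream 55 windows had it, or 1.12% (0.863% to 1.46%), and the share over all counted windows was 0.580%. Of the 38 tested downstream windows with the core that close, 2 were called lower (5.26%), IFRD2 and UBALD1, the median log2 fold change was -0.105 and 65.8% were negative. The share called lower was close to that of all tested windows with the core that close, 52 of 1099 (4.73%), and upstream it was 8 of 53 (15.1%). Another 26 held the core in the outer part of the window, of which 2 were called (7.69%), DUS3L and ZNF428, with a median of 0.018. With the core anywhere in the window, 4 of 64 were called downstream (6.25%) and 8 of 85 upstream (9.41%). Over all tested windows it was 62 of 2139 (2.90%). With the nearest core 200 to 1000 bp upstream of the centre, 3 of 192 were called (1.56%). With it on the far side 0 of 119 were called by edgeR and by DESeq2, with 1 lower and 1 higher at an unadjusted p below 0.05. The share over all tested downstream windows was 0.364%, so 0 calls in 119 windows do not set the far side apart. No core was found within 1000 bp in 6489 windows, of which 18 were called (0.277%), out of the 25 calls, with a median of 0.008. The absence of these letters says nothing about the factor.

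A split by the bases before the core was made after the sites had been seen and is a description only. CTACA preceded the core in 5 downstream windows, all with negative log2 fold changes: -1.02 at DUS3L, -0.76 at UBALD1, -0.41 at SUCLG1, -0.31 at MON1A and -0.30 at MRPL24, the first 2 being called. Without replicates 11 and 12 of both groups, MON1A and MRPL24 passed as well (edgeR adjusted p = 0.0138 and 0.000191), and MRPL24 also with loess offsets (edgeR adjusted p = 0.0424). The median of the 5 was -0.406. In the 59 downstream windows with the core alone the median was -0.022, 52.5% were negative and 2 were called, namely IFRD2 and ZNF428. Upstream, 19 windows with CTACA had a median of -0.377 with 6 called, and 66 with the core alone a median of -0.033 with 2 called. SUCLG1 is a subunit of succinyl-CoA ligase in the citric acid cycle, MON1A takes part in endosome maturation, and MRPL24 is a mitochondrial ribosomal protein.

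None of the 5 downstream windows with the highest level was called by edgeR or DESeq2, and 0 had an unadjusted p below 0.05. At ZNF687, a zinc finger gene, control libraries had 5.91 to 7.39 log2 CPM (median 7.26) and dTAGV-1 libraries 6.55 to 7.43 (median 7.21), 508 bp from the gene start and 173 bp upstream of the canonical one. Its log2 fold change was 0.01 (SE 0.18, edgeR adjusted p = 1). SPAG7, USP1, G3BP1 and CIC followed in level, with control means of 6.69, 6.65, 6.62 and 6.60 and log2 fold changes of 0.03, 0.00, 0.01 and -0.03. USP1 is a deubiquitinase of DNA repair, G3BP1 a scaffold of stress granules and CIC a transcriptional repressor.

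ZNF143 itself had 1 downstream window, in an untranslated exon 529 bp from the gene start and 164 bp upstream of the canonical start. Control libraries had 4.95 to 6.22 log2 CPM there (median 6.16) and dTAGV-1 libraries 5.57 to 6.30 (median 6.09), with a log2 fold change of -0.05 (SE 0.16). ZNF76, its paralogue, had windows at 102 and 575 bp with log2 fold changes of -0.05 (SE 0.13) and -0.02 (SE 0.14). HCFC1, a coregulator that works with factors bound at promoters, had windows at 270 and 551 bp with 0.08 and 0.12 (SE 0.13 each). None of these 5 was called by edgeR or DESeq2 or had an unadjusted p below 0.05, and THAP11 had no downstream window.

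Among gene lists, downstream windows of 173 genes named ZNF and a number were the most numerous: 176 were tested, 2 were called lower (ZNF223 and ZNF428) and 0 higher, with a median log2 fold change of -0.002. The share called lower was 0.364% over the downstream and 0.213% over all tested windows, so that 0 calls in a list of 10 to 27 windows, as in the other lists, does not set that list apart. The ZNF-named windows ranged from -1.05 to 0.46, and at an unadjusted p below 0.05 there were 6 lower and 1 higher. DESeq2 called 5 of them lower, where its share called lower was 0.437% over the downstream and 0.272% over all tested windows. In the 27 tested windows of mitochondrial ribosomal proteins, which translate in the organelle, 0 were called by edgeR or DESeq2, 2 were lower at an unadjusted p below 0.05 and the median was -0.015. MRPL48 measured 4.61 ± 0.33 and 4.22 ± 0.26 log2 CPM (SD, n = 8), the lowest fold change of that list at -0.41, and is named after its values were seen, as is RPL38. MRPL48 passed the test in 4 of 22 alternatives, among them without control replicate 12 (edgeR adjusted p = 0.0375). In the 20 windows of cytosolic ribosomal proteins 0 were called by either tool, RPL38 at -0.42 was the 1 lower at an unadjusted p below 0.05, and the median was -0.004.

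Proteasome subunits (10 tested windows), complex I subunits of the respiratory chain (12), aminoacyl-tRNA synthetases (14) and histones (22, the variant genes H2AX, H2AZ1 and H2AZ2 included) had 0 calls by edgeR or DESeq2 and 0 windows at an unadjusted p below 0.05. Their median log2 fold changes were -0.049, -0.050, 0.013 and -0.036, beside 0.0077 over all tested windows, and their single values lay between -0.29 and 0.17. Median control levels of these 4 lists were 3.45, 3.05, 4.17 and 3.50 log2 CPM.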

How the data were processed

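Replicates 9 to 16 were compared, 8 control against 8 dTAGV-1 libraries as the labels group them. The deposited table gives raw whole-number counts for each window, and 0 of its value columns were left unused. The same table gives the authors' −log10 q of the peak call, used only to describe windows. The deposited list of peak summits carries the authors' −log10 score per summit, belongs to replicates 1 to 8, and served only to count windows that hold a summit. Per the submitters' processing notes, cutadapt 1.8.1, Bowtie2 2.4.4, SAMtools 1.9 and the build hg38 were used, with no role given. The peak caller, read filters, any Tn5 shift and the counting tool are not given in the sources used here. An offset of Tn5 cuts, if not corrected, would move both groups by the same few bases.

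Gene starts, exons and transcripts came from GENCODE release 44, and 0 windows ran past a chromosome end of hg38. The quasi-likelihood test of edgeR 4.0.16, run in R 4.3.3 without covariates, was applied to the counts, after filterByExpr and TMM scaling, with Benjamini-Hochberg adjustment over all 185040 tested windows and a threshold of 0.05. The downstream to upstream ratio was tested as the interaction of position and treatment with the library as a block, on the deepest window of each side. Log2 CPM used a prior count of 2. Each SE of a fold change or ratio change is its absolute log2 value divided by the square root of the F statistic of its test. The core and other strings were searched with Python 3.11.15. Fits were tested on simulated data. Alternatives were other scalings, DESeq2 1.42.0, limma 3.58.1, no filter on low counts, the replicate number as a block, libraries left out and other distances.

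The windows, the lists and the tests were chosen with earlier results of these data known. Windows named in the text are the 20 lower ones with the smallest p (8 in full), up to 5 genes in each direction of the ratio test, the 5 highest in level, and those of ZNF143, ZNF76, HCFC1 and THAP11. Other genes were named after their values were seen: the last 5 of the 25 calls (ZNF428 is also under the ratio rule), neighbouring windows of called genes, the uncalled genes with a printed site, genes of the ratio test with the core, and MRPL48 and RPL38. Replicates were compared in 56 pairs within groups, and chi-square per degree of freedom ran from 1.63 to 5.0, above sampling noise in every pair. With 8 libraries per group, and totals of 2275856 to 13671039 counts over both groups, weak windows are measured with less precision than strong ones.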

Additional observations from a re-analysis of the deposited data

Results flagged for a closer look

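A library is listed here when the gap to its nearest neighbour was large relative to the range of its group of 8. Of 94 groups of 8 values examined, 33 were picked out, where chance picks out about 1 in 20. Control replicate 12 makes up most of them, on the low side. It had a mean downstream level of 2.427 log2 CPM against 3.038 to 3.182 in the other control libraries, and 5.444% of its counts in downstream windows against 7.458% to 8.059%.

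Among called windows, control replicate 12 measured 4.86 log2 CPM at IFRD2, 4.455 at FNTB, 3.815 at DUS3L, 3.017 at POLR1A, 3.653 at CEP57L1 and 2.949 at RNASEH2C. It measured 2.453 at CMPK1, 5.447 at USP5, 4.639 at CALCOCO1, 4.029 at ALG14, 4.803 at CEP97, 3.37 at STMN1, 2.877 at SAMD12 and 2.453 at CDIP1. Each value was below those of the other 7 control libraries, and a low control value makes a lower call less likely. Among windows not called, it measured 5.909 at ZNF687, 5.844 at SPAG7, 5.935 at USP1, 5.519 at G3BP1 and 5.632 at CIC, and 4.95 at ZNF143, 3.653 at ZNF76 (575 bp) and 4.326 at HCFC1 (551 bp).

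Control replicate 14 measured 0.706 log2 CPM at PLPP7 against 2.064 to 2.638, and its downstream minus upstream mean was -0.302 against -0.418 to -0.368. In dTAGV-1, replicate 16 measured 3.081 at ZNF223 against 3.434 to 3.712, and replicate 11 measured 3.401 at ALG14 against 4.084 to 4.451 and 3.586 at CDIP1 against 2.746 to 3.103. Replicate 11 also had a log2 ratio of downstream to upstream of -0.109 at ALG14, against 0.692 to 1.316. Replicate 12 of dTAGV-1 had log2 ratios of -2.126 at TMEM245 (others -1.215 to -0.78), -0.116 at USP5 (others -0.7 to -0.454) and 0.513 at ZNF460 (others -0.293 to -0.03).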

How the results depend on the processing

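The 25 downstream and 32 upstream windows called lower, and the 395 of the whole table, became 48, 70 and 679 with loess offsets and 56, 84 and 767 without replicates 11 and 12 of both groups. With the centre limited to 100 to 400 bp, which takes fewer windows, 16 downstream windows were called. Leaving out 1 library gave 20 to 43 downstream and 26 to 68 upstream, the highest without control replicate 12. The 0 downstream windows called higher became 2 with loess offsets and 3 without replicates 11 and 12, and stayed 0 in each fit that left out 1 library. The 1 upstream window called higher became 2 with loess offsets, DESeq2 or without replicates 11 and 12, 0 with other coding starts excluded within 1000 bp, and 0 to 1 with 1 library left out. The cause of these shifts was not tested. Across the scalings, DESeq2 and the fit without filter, at least 24 of the 25 downstream calls were shared.

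The 21 genes with a higher ratio became 13 by limma and 12 to 22 with 1 library left out, the lowest without dTAGV-1 replicate 14. The 4 genes with a lower ratio numbered 3 to 6 with 1 library left out. The share of downstream windows with the core changed by construction with the reach of the search, to 0.338% at 50 bp from the centre and 0.916% at 200 bp. The downstream median log2 fold change lay between -0.0396 and 0.0383 with 1 library left out. None of the 25 downstream, 33 upstream and 25 ratio calls changed direction in any alternative fit. Of the downstream calls, 19 passed in all 22 alternatives, FTSJ1, SYT3 and SAMD12 missed the threshold in 1 each, and ZNF428, C19orf81 and CDIP1 in 10, 13 and 14. Upstream 25 passed in all 22, and of the ratios 13 passed in all 21. The ratio of ZNF460 missed it in 13 (largest adjusted p = 0.21 by edgeR or limma).

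Replicate numbers are shared between the groups, but the labels name no shared culture or day. Deviations from the group means of same-numbered libraries correlated at 0.0276 to 0.3364. For 4 of 8 numbers the control and the dTAGV-1 library were each the best match of the other across the groups. Whether the numbers mark a shared batch was not tested. With the replicate block, edgeR called 49 downstream windows lower and 3 higher, and 77 upstream windows lower and 2 higher, with 742 of the whole table lower. Limma with the replicate block called 4 ratios lower and 16 higher.

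Counts shared by overlapping windows make neighbouring calls dependent. Control replicate 12, the shallowest and flattest library, had a mean downstream level of 2.427 log2 CPM against 3.038 to 3.182 in the other controls. It lowered the control means of downstream windows and widened their spread. The part of depth in this was not tested.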
